A study of Mus musculus with 4 samples.

Results

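The genes described here are 10 chemokines, cytokines and cytokine receptors of fibroblasts: Ccl2, Ccl7, Ccl5, Cxcl1, Cxcl5, Cxcl12, Il6, Lif, Csf1 and Il1rl1. They were taken by symbol from the deposited transcript table, and every tested transcript of each was used. The table held 18 transcripts of 9 of these genes, among 34200 transcripts of 21945 genes in all. The level of Cxcl12 was not analysed here. The samples were polyadenylated RNA of NIH/3T3 cells, an immortalised line of mouse fibroblasts. Knockdown (KD) samples were co-transfected with 2 siRNAs against Setd2, the methyltransferase that places H3K36me3 on transcribed gene bodies, and control samples received Scrambled siRNA and are called WT below. Each siRNA transfection used 10 nM, RNA was taken at 48 h, and there were 2 libraries per group. Both groups therefore passed through transfection, and the control was neither an untreated culture nor a separate genotype. All results describe 1 cell line after a transient knockdown. The labels do not say whether the 2 libraries of a group came from separate cultures, so q-values cannot be taken to cover variation between cultures.

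Fibroblasts are sentinel cells of connective tissue. When interleukin-1, tumour necrosis factor or Toll-like receptor ligands activate NF-kB, they release chemokines, small secreted proteins that bind G protein-coupled receptors and draw leukocytes along a gradient. CC chemokines such as Ccl2 mainly attract monocytes, and CXC chemokines such as Cxcl1 attract neutrophils through Cxcr2. Il6 and Lif signal through the shared receptor chain gp130 (Il6st) to JAK kinases and STAT3. Csf1 keeps macrophages alive and acts through Csf1r. Il1rl1, also called ST2, is the receptor of interleukin-33 and was first cloned from growth-stimulated mouse fibroblasts. Its gene makes a membrane receptor and a short secreted form that binds interleukin-33 without signalling. Many mRNAs of these families are short-lived, since AU-rich elements in their 3′UTRs recruit decay proteins such as tristetraprolin (Zfp36).

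For each transcript the deposited table gives a Sleuth fit over the 4 libraries, with the KD effect, the standard error (SE) of that effect and an overall mean. It holds no values of single libraries, so the values below are fitted group levels in normalised estimated counts, and overlap between libraries of the groups could not be examined. Depth is unknown for the same reason. The spread of libraries is given as the replicate SD, the standard deviation of the 2 libraries of a group round their mean, pooled over both groups, on the log2 scale. The SE can exceed it, as for Csf1-201 (0.081 beside 0.037), so the fit does not rest on the spread of these libraries alone. Transcripts with a likelihood ratio q-value under 0.05 were called. By that rule 12.5% of all transcripts were called, 7.26% as higher and 5.21% as lower in KD. At least 1 transcript was called for 17.4% of genes, with 10.1% higher and 7.43% lower. An unadjusted likelihood ratio p under 0.05 was found for 11615 of all 34200 transcripts. This test does not closely follow the effect over its SE. Socs4, chosen after its values were seen, had a log2(fold change) of −0.004 (SE 0.095) and a q-value of 0.0968. The Wald test of the same fit gave it q = 0.993. A q-value somewhat above 0.05 is therefore no sign of a change by itself. Setd2 itself stood at 3680 in WT and 923 in KD, a log2(fold change) of −1.99 (SE 0.09, q = 0.0103), the direction the labels give. Of 10 fibroblast markers 9 were tested, with a summed level of 1255260 in WT and 1126360 in KD, and 6 of the 9 had a called transcript. The collagens Col3a1 (log2(fold change) −0.92, SE 0.12), Col1a2 (−0.68, SE 0.14) and Col1a1 (−0.68, SE 0.15) fell, and at least 1 transcript of Fn1, Pdgfra and Pdgfrb rose. Of 9 leukocyte markers 7 were tested, and their summed level was 1300 in WT and 1251 in KD. The called one was Lyz2, at 456 in WT and 269 in KD (−0.76, SE 0.17, q = 0.0218). Of those not called, Cd14 was at 356 in WT and 469 in KD, Cd68 at 303 and 391, Csf1r at 123 and 86.4, Ptprc at 52.0 and 17.4, Itgam at 3.82 and 17.7, and Adgre1 was listed at 6.32 in WT and at 0 in KD. The part of these marker shifts in the results below was not tested. Summed levels were 119 in WT and 158 in KD for 2 epithelial markers, and 111 in WT and 121 in KD for 4 endothelial markers. In bulk RNA, fewer cells of a type and less RNA per cell cannot be told apart.

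Among the 18 transcripts, 6 were called, 2 of them higher and 4 lower in KD, and they belonged to 5 genes. Ccl2 and the long, membrane-bound form of Il1rl1 rose. Ccl7, Il6, the main transcript of Csf1 and the short, secreted form of Il1rl1 fell. The median log2(fold change) of the 18 transcripts was −0.26, beside −0.01 for all transcripts. Of the 18 values 12 were below 0, beside 17379 of all 34200. Transcripts of 1 gene share sequence, so the 18 values are not independent of each other. Part of the count depends on level: of the transcripts whose mean reached 100 normalised estimated counts, 21.4% were called, and 14 of the 18 transcripts were in that range, with the same 6 called. The 12 transcripts that were not called had log2(fold changes) between −1.46 and 0.40 and SEs between 0.12 and 2.87.

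**Figure D1:**
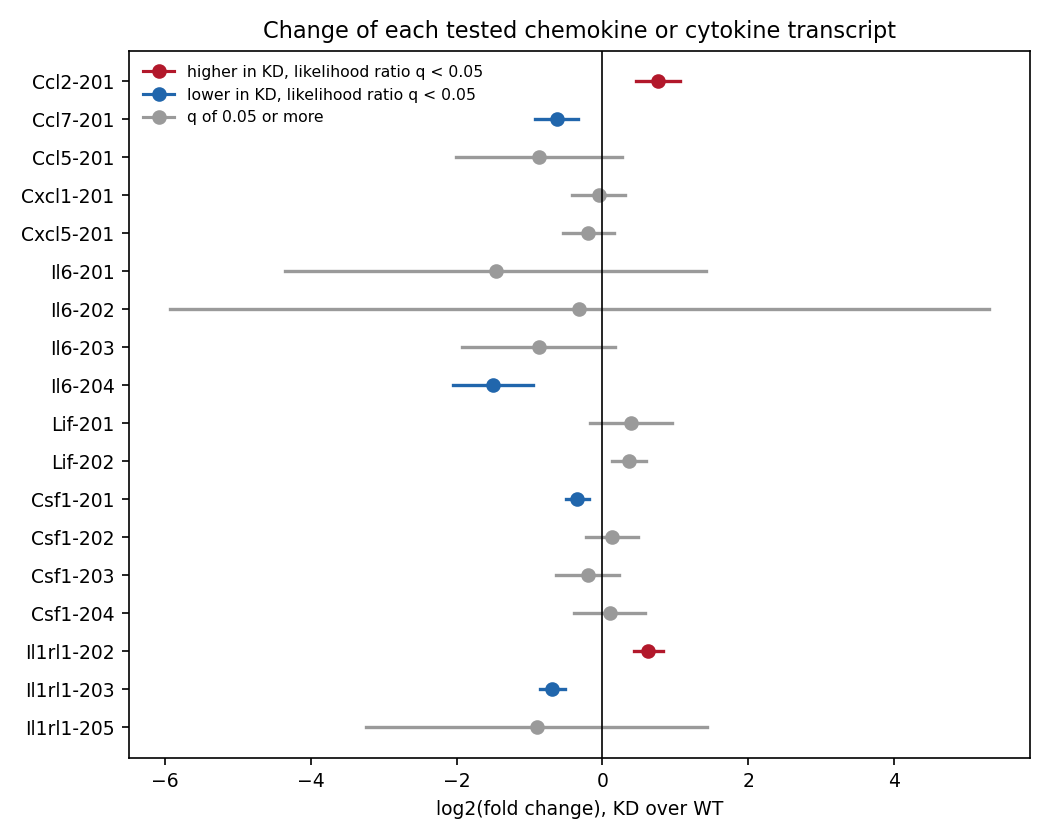
Log2(fold change) of KD over WT for the 18 tested transcripts, with points for the fitted value and lines for the 95% confidence interval from the deposited standard error. Ccl2-201 and Il1rl1-202 lie above 0 in red, Ccl7-201, Il6-204, Csf1-201 and Il1rl1-203 lie below 0 in blue, and the intervals of Il6-201, Il6-202 and Il1rl1-205 span several units.

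The CC chemokines did not move together. Ccl2, the main monocyte attractant of fibroblasts, rose from 1974 in WT to 3363 in KD. This was an increase of 70.3% (95% confidence interval 38.1% to 110.1%) and a log2(fold change) of 0.77 (SE 0.15, q = 0.0268), 4.98 times the replicate SD. Ccl7, which uses Ccr2 as Ccl2 does, fell from 607 in WT to 393 in KD, a log2(fold change) of −0.63 (SE 0.15, q = 0.0361) and 4.30 times the replicate SD. The call for Ccl7 was lost with limma's moderated test (adjusted p = 0.0612), which called 9.68% of all transcripts. Both genes lie on the plus strand of chromosome 11 (GRCm38), Ccl2 at chr11:82035571-82037453 and Ccl7 at chr11:82045712-82047525, with 8258 bases between them. Each has 3 exons and 1 tested transcript, and all 31-base words of both transcripts are found in no other tested transcript. The 2 neighbours differed in log2(fold change) by 1.40 (95% confidence interval 0.97 to 1.82, with the 2 errors taken as independent). Ccl5, which attracts T cells and monocytes, lies further along the chromosome on the minus strand, at chr11:83525778-83530518. It was at 54.1 in WT and 29.4 in KD. Its log2(fold change) of −0.87 had an SE of 0.58 and did not pass (q = 0.262), and the interval of −2.01 to 0.27 holds changes as large as that of Ccl7 and no change at all.

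For the CXC chemokines no difference was detected. Cxcl1, a neutrophil attractant, was at 569 in WT and 550 in KD, with a log2(fold change) of −0.05 (SE 0.19, q = 0.502). Cxcl5, which binds the same receptor, was at 2240 in WT and 1961 in KD, with a log2(fold change) of −0.19 (SE 0.18, q = 0.431). The intervals were −0.42 to 0.32 for Cxcl1 and −0.54 to 0.15 for Cxcl5, so the rise of Ccl2 and the fall of Il6 are larger than any change these intervals allow. Centring on transcripts of similar GC content turned the sign of both, to 0.056 and 0.20, and neither was called. Both genes lie on the plus strand of chromosome 5, Cxcl5 at chr5:90759378-90761624 and Cxcl1 at chr5:90891241-90893115, each with 4 exons.

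Il6 showed the greatest called fall of the set, at a low level. Il6 is the interleukin through which fibroblasts drive the acute phase response. The gene lies at chr5:30013114-30019975 on the plus strand and had 4 tested transcripts. Il6-204 fell from 184 in WT to 64.7 in KD, a change of −64.6% (95% confidence interval −75.8% to −48.1%) and a log2(fold change) of −1.50 (SE 0.28, q = 0.0205). The other 3 were lower in KD by estimate and none passed. Il6-203 was at 51.7 in WT and 28.0 in KD (log2(fold change) −0.87, SE 0.54), Il6-201 at 26.8 and 9.42 (−1.46, SE 1.47), and Il6-202 at 1.76 and 1.32 (−0.31, SE 2.87). The isoforms share most of their sequence. Only 5.89% of the 31-base words of Il6-204, 2.70% of those of Il6-201 and 4.51% of those of Il6-202 are found in no other tested transcript. For Il6-203 this was 54.4%. The technical variance of the fit, which holds counting error and the uncertainty of read assignment together, made up 74.0% of the variance of Il6-204. Summed over the 4 transcripts, the level was 264 in WT and 104 in KD, and Il6-204 held 69.6% and 62.5% of it. The gene q-value, which combines the p-values of the transcripts and carries no direction, was 0.0175 for Il6; 24.0% of all genes had one under 0.05.

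Lif, the other gp130 ligand among these genes, was higher in KD by estimate and lay at the threshold. It lies at chr11:4257557-4272514 on the plus strand. Its main transcript, Lif-202, was at 1728 in WT and 2221 in KD, with a log2(fold change) of 0.36 (SE 0.12, q = 0.0544). Lif-201, which starts further downstream and shares all but 0.56% of its 31-base words with other tested transcripts, was at 520 in WT and 684 in KD (log2(fold change) 0.40, SE 0.29, q = 0.284). The call for Lif-202 depended on the test: the Wald test of the same fit, which called 18.2% of all transcripts, gave q = 0.0159. Removal of transcripts with a mean under 100 gave an adjusted likelihood ratio p of 0.0318, in a setting that called 6440 of the 18808 transcripts kept. The gene q-value was 0.0347, and 24.0% of all genes had one under 0.05. The 2 transcripts kept their shares of the gene, with Lif-202 at 76.9% in WT and 76.5% in KD.

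Csf1, the macrophage growth factor, was the second most abundant of these genes and fell slightly. The gene lies on the minus strand at chr3:107741048-107760469. Its main transcript Csf1-201, with 9 exons, fell from 25781 in WT to 20345 in KD, a change of −21.1% (95% confidence interval −29.3% to −11.9%) and a log2(fold change) of −0.34 (SE 0.08, q = 0.0265). The other 3 transcripts did not pass. Csf1-202, which encodes a shorter protein with the same 3′UTR, was at 2752 in WT and 3013 in KD (log2(fold change) 0.13, SE 0.18). Csf1-203, which encodes a protein of the same 552 codons as Csf1-201 but has another 3′UTR of 259 bases in place of one of 2111 bases, was at 2721 in WT and 2367 in KD (−0.20, SE 0.22). Csf1-204 was at 154 in WT and 165 in KD (0.10, SE 0.25). Csf1-201 held 82.1% of the summed level in WT and 78.6% in KD. Among the tested transcripts, no 31-base word is particular to Csf1-202 and 5.48% are to Csf1-201. The split between them therefore rests on the estimate of read assignment.

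Il1rl1 changed in form more than in amount. The gene lies on the plus strand of chromosome 1, and its 3 tested transcripts differ at both ends. Il1rl1-203 (chr1:40439776-40448148, 8 exons) encodes 337 codons, the short secreted form. Il1rl1-202 (chr1:40439627-40465415, 11 exons) encodes 567 codons, the membrane receptor. Il1rl1-205 (chr1:40429570-40446723) starts at a distal promoter 10057 bases before Il1rl1-202 and has the same coding sequence as Il1rl1-203. The short and long forms share their first 985 coding bases, up to position 40446675 on chromosome 1. There Il1rl1-202 is spliced to an exon that starts at 40450075, and the exon 8 of Il1rl1-203 reads on into the intron and ends at 40448148, before that exon is reached. By annotation the short form is thus an mRNA that ends within an intron of the long one, 17267 bases before its end. Polyadenylation inside genes, and whether H3K36me3 bears on it, was a question of the study. For NIH/3T3 cells the paper proposes that the mark has no major part in it. Whether the mark bears on the Il1rl1 forms was not tested here. The coding sequences at the point where they part are shown 5′ to 3′ because they define the 2 forms. Lower case marks the last 30 shared bases and capitals mark what follows in each mRNA. In Il1rl1-203 the capitals start with the GT of the unused splice site, which completes the codon where the forms part. They then run through 8 full codons of its own to the stop codon.
Il1rl1-203: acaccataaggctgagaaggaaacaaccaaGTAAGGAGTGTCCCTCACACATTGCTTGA
Il1rl1-202: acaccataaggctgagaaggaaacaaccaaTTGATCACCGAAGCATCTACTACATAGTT
In Il1rl1-202 the reading frame goes on for 238 further full codons after the codon where the forms part. The poly(A) signals of the 2 ends also differ, and 30 bases around each are shown with the signal in capitals. The AATAAA of Il1rl1-203 starts 31 bases before its annotated end, and the ATTAAA of Il1rl1-202 starts 22 bases before its end.
Il1rl1-203 end: cacagcgtattaAATAAAattcgtgtctat
Il1rl1-202 end: gagttctagcttATTAAAaaaaaaaatcta

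The 2 main forms moved in opposite directions. Il1rl1-203 fell from 48466 in WT to 30109 in KD, a log2(fold change) of −0.69 (SE 0.09, q = 0.0137) and 7.98 times the replicate SD. Il1rl1-202 rose from 13568 in WT to 20990 in KD, a log2(fold change) of 0.63 (SE 0.10, q = 0.0185) and 6.17 times the replicate SD. Their log2(fold changes) differed by 1.32 (95% confidence interval 1.05 to 1.58, with the errors taken as independent, although reads from the shared exons are divided between them). In each group the short form was the more abundant one. The distal transcript Il1rl1-205 was at 1908 in WT and 1021 in KD and did not pass (log2(fold change) −0.90, SE 1.19, q = 0.673). Taking Il1rl1-203 and Il1rl1-205 together, there were 3.71 normalised estimated counts of the short form for each of the long form in WT and 1.48 in KD. Per kilobase of mRNA, these ratios were 7.73 in WT and 3.07 in KD. The long form held 21.2% of the gene's counts in WT and 40.3% in KD, and 11.5% and 24.6% per kilobase. Summed over the 3 transcripts, the level was 63942 in WT and 52120 in KD, and the gene q-value was 0.00118. Of their 31-base words, 76.6% for Il1rl1-202, 54.2% for Il1rl1-203 and 5.06% for Il1rl1-205 occur in no other tested transcript. This technical variance made up 1.36% of the variance of Il1rl1-202 and 0.67% of that of Il1rl1-203.

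**Figure D2:**
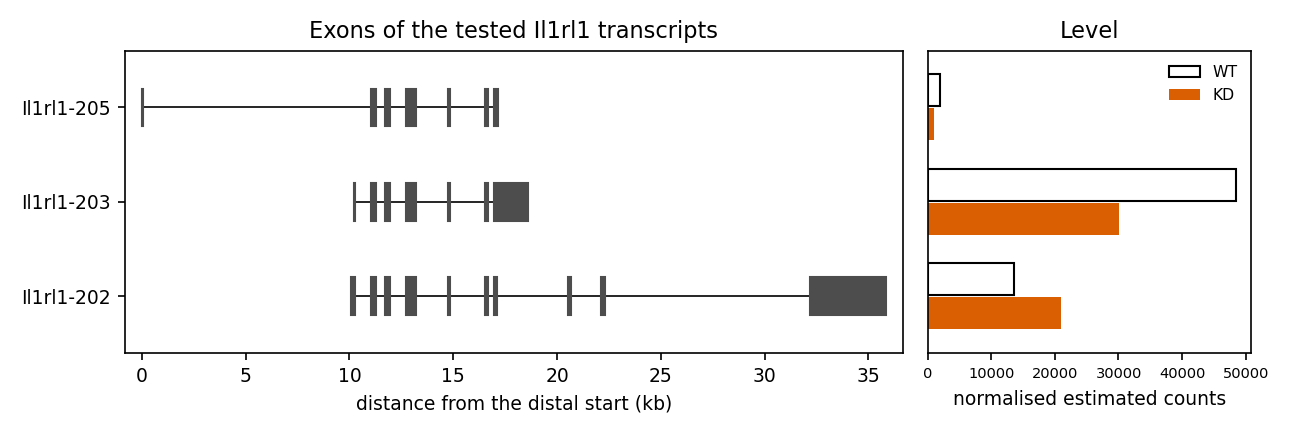
Left, exons (boxes) of the 3 tested Il1rl1 transcripts by distance in kb from the start of Il1rl1-205; right, bars for their fitted levels in normalised estimated counts, WT open and KD filled. Il1rl1-203 ends in a long exon 17267 bases before the end of Il1rl1-202, and its level is lower in KD (30109 against 48466) where that of Il1rl1-202 is higher (20990 against 13568).

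Levels of the genes were compared per kilobase of transcript, summed over transcripts. Il1rl1 was the most abundant in WT, at 22341 normalised estimated counts per kilobase, followed by Csf1 at 8559, Ccl2 at 2428 and Cxcl5 at 1422. Ccl7 at 758, Cxcl1 at 598 and Lif at 566 lay close together, and Il6 at 239 and Ccl5 at 102 were the lowest. By the mean of KD and WT on this scale, Il1rl1 stood at the 98.8th percentile of all genes and Csf1 at the 97.4th. Il6 stood at the 53.8th and Ccl5 at the 46.7th. Transcripts without an annotated length added nothing to their gene's value in this ranking, so the percentiles are approximate. In KD the values were 16114 for Il1rl1, 7187 for Csf1, 4136 for Ccl2 and 1245 for Cxcl5. Lif was at 732 per kilobase in KD and stood above Cxcl1 at 577 and Ccl7 at 490, an order opposite to that in WT. These levels are summed estimates without an error of their own, and the order among Ccl7, Cxcl1 and Lif was not tested.

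**Figure D3:**
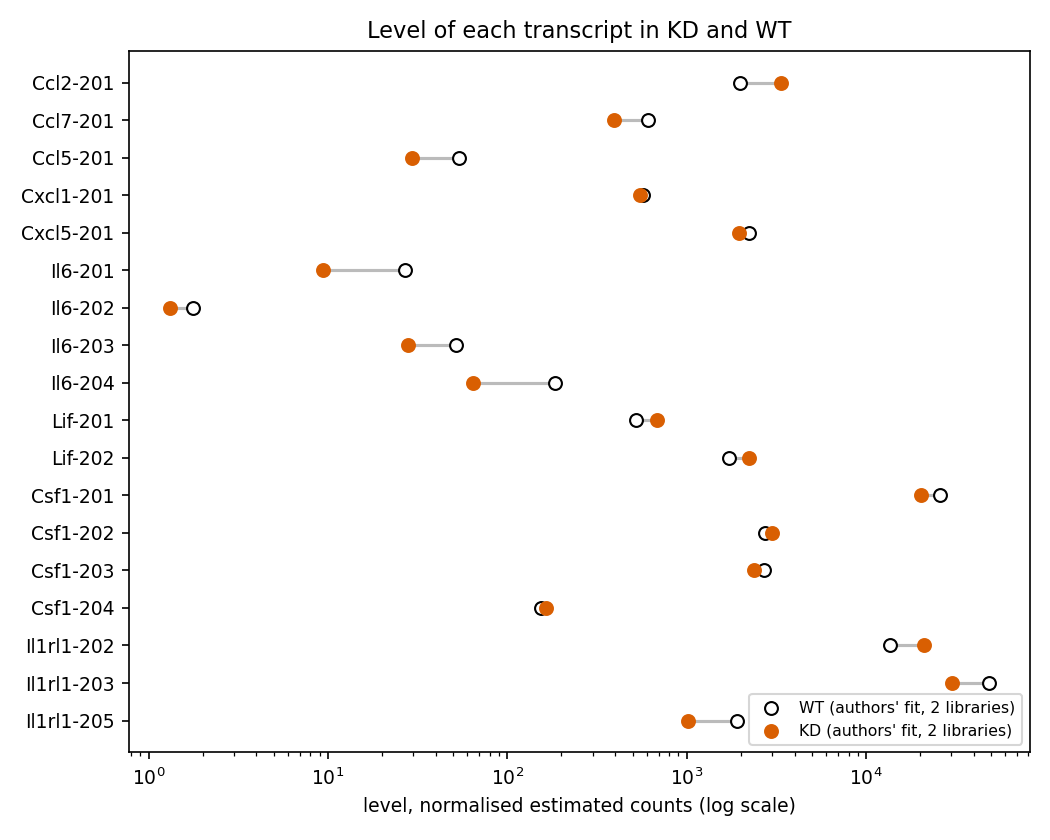
Fitted level of each of the 18 transcripts in normalised estimated counts (log axis), with open points for WT, filled points for KD and a line joining them. Levels run from 1.32 for Il6-202 in KD to 48466 for Il1rl1-203 in WT, and the longest line among the called transcripts is that of Il6-204 (184 against 64.7).

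The 3′UTRs of these mRNAs carry AU-rich elements to unequal extents. The pentamer ATTTA occurs in 63.1% of 24703 annotated 3′UTRs of tested transcripts and the longer TTATTTATT, which contains it, in 7.14%. On the sense strand of Cxcl1-201 there were 7 copies of ATTTA and 2 of TTATTTATT in 592 bases, and 0.33% of 3′UTRs of similar length held as many copies of ATTTA. Il6-204 held 4 copies of ATTTA in 291 bases, and 0.60% of 3′UTRs of similar length held as many. Il6-201 held 6 in 427 bases, a number reached by 0.40%. Lif-202 held 7 copies of ATTTA and 2 of the longer word in 3180 bases. Of 3′UTRs of similar length, 37.1% held as many copies of ATTTA and 14.4% held the longer word. With such shares for ATTTA in brackets, Ccl7-201 held 2 copies in 435 bases (16.9%) and Ccl2-201 held 1 in 275 bases (33.3%). Csf1-201 held 4 in 2111 bases (48.1%), Il1rl1-202 held 3 in 3246 bases (80.6%) and Il1rl1-203 held 1 in 1444 bases (83.5%). Ccl5-201 held none in 199 bases. A stretch of 30 bases of the 3′UTR is shown for Cxcl1-201 and for Il6-204, an mRNA without and one with a call, with ATTTA in capitals.
Cxcl1-201: gggtcctATTTATTTAtgtATTTATTTAtt
Il6-204: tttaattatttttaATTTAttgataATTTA
Of these 2 mRNAs, Il6-204 fell (log2(fold change) −1.50) and Cxcl1-201 had an estimate of −0.05. Whether the number of copies bears on the changes was not tested.

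RefSeq promoters (GRCm38.p6, windows of 300 bases that run over a start site) were matched for 6 of the 10 genes. The NF-kB motif, spelled GGG, then any 3 bases, then TTCC and searched on both strands, occurs in 5.56% of 32851 such promoters. It was found once for Il6, once for Csf1 and 3 times for Cxcl1, where 2 of the matches overlap on opposite strands. Lif, Il1rl1 and Cxcl12 held no match in these windows. The AP-1 motif TGANTCA, also searched on both strands and found in 7.81% of promoters, occurred once each for Il6 and Lif. The 120 bases before the start of Il6 (chr5:30012994-30013113) and of Cxcl1 (chr5:90891125-90891244) are shown with NF-kB matches in capitals. Both hold the motif, and its part in their levels was not tested. A match is a description of the letters and not evidence of binding.
Il6: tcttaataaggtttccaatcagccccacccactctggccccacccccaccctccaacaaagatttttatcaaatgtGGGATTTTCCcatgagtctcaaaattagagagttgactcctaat
Cxcl1: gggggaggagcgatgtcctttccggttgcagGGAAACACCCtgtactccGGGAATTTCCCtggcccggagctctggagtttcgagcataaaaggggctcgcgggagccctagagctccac
The match in Il6 starts 44 bases before the start site, and the first in Cxcl1 89 bases before it. The start used for Il6 is that of Il6-201, at 30013114, which was not called. The called transcript Il6-204 starts at 30013321, downstream of the window of 300 bases.

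Other secreted cytokines and chemokines gave a mixed picture. Of 55 listed genes 36 were tested, and 9 (25%) had a called transcript, 6 higher and 3 lower, beside 17.4% of all genes, with 10.1% higher and 7.43% lower. By transcript, 11 of 61 were called. The list had a median log2 ratio of 0.04 beside −0.03 for all genes. The greatest called rise was that of Il34, the second ligand of the Csf1 receptor, from 154 in WT to 549 in KD (log2(fold change) 1.83, SE 0.24, q = 0.0141). Il34 therefore rose where Csf1-201 fell. The greatest called fall was that of Il7, a lymphocyte survival factor, from 39.8 in WT to 6.98 in KD (−2.43, SE 0.70, q = 0.0435). The remaining genes named in this and the next 4 paragraphs outside those with the greatest rise and fall were chosen after their values were seen. The gp130 ligands Clcf1 (log2(fold change) 0.75, SE 0.09) and Cntf (0.85, SE 0.21) rose, as did Mif (0.73, SE 0.11) and Tnfsf9 (0.40, SE 0.12). Flt3l, a growth factor of dendritic cells, fell for 1 of 4 transcripts, from 409 to 257 (−0.67, SE 0.18), and Ccl9 also fell. Ctf1, another gp130 ligand, did not pass, with −0.44 (SE 0.17) and −0.78 (SE 0.33) for its 2 transcripts. Spp1, which encodes osteopontin and was the most abundant of the list, rose from 194238 to 366612 for its main transcript (0.92, SE 0.14). Il33, the ligand of Il1rl1, was at 4.44 in WT and 28.2 in KD and did not pass (2.54, SE 1.27, q = 0.133).

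Of 25 listed receptors 18 were tested. Beside receptors of the genes described here, the list holds receptors of other ligands, such as Il1r1, Tnfrsf1a, Tlr2, Tlr3 and Tlr4. Of the 18, 6 (33.3%) had a called transcript, 1 higher and 5 lower, beside 17.4% of all genes, with 10.1% higher and 7.43% lower. By transcript, 7 of 35 (20%) were called, beside 12.5% of all transcripts and 21.4% of those whose mean reached 100. The median log2 ratio was −0.27. Il1r1, the interleukin-1 receptor, of the same family as Il1rl1, fell for both tested transcripts, from 692 in WT to 306 in KD (log2(fold change) −1.18, SE 0.22, q = 0.0233) and from 2441 to 1592 (−0.62, SE 0.10, q = 0.0166). The main transcript of Il6st, the gp130 chain, fell from 9430 to 6329 (−0.58, SE 0.08, q = 0.0120), and Osmr, which pairs with it, fell from 3991 to 3211 (−0.31, SE 0.08, q = 0.0359). Tlr2, a sensor of bacterial lipoproteins, fell (−0.59, SE 0.11), as did Ackr3, a scavenger of Cxcl12 (−0.37, SE 0.08). Il6ra was the one called rise, for the minor of its 2 tested transcripts, from 718 to 965 (0.43, SE 0.13). The q-value of 0.0499 was just inside the threshold. Its main transcript was at 1290 in WT and 1735 in KD and did not pass (0.43, SE 0.14, q = 0.0697). With limma's test 3 of these 6 genes had a called transcript. Receptors of the chemokines were low: Ccr2 was at 56.1 in WT and 49.3 in KD and Cxcr2 at 142 and 111, and neither was called. Csf1r, the receptor of Csf1, was at 123 in WT and 86.4 in KD (log2(fold change) −0.50, SE 0.25, q = 0.135). Il1rap, the partner chain of Il1rl1, was at 2921 in WT and 3265 in KD for its main transcript (0.16, SE 0.08, q = 0.0889).

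Of 31 listed genes of NF-kB and C/EBP signalling 29 were tested, and 4 (13.8%) had a called transcript, 2 higher and 2 lower, beside 17.4% of all genes. By transcript, 4 of 63 (6.35%) were called, beside 12.5% of all transcripts. Nfkbib, an inhibitor that holds NF-kB in the cytoplasm, rose from 619 in WT to 1192 in KD (log2(fold change) 0.95, SE 0.12, q = 0.0112), and the ubiquitin ligase Traf6 rose from 1748 to 2453 (0.49, SE 0.09, q = 0.0173). Chuk, a kinase that activates the pathway, fell from 6696 to 4393 (−0.61, SE 0.09, q = 0.0129), and the subunit Rel fell from 1237 to 931 (−0.41, SE 0.11, q = 0.0324). The count for this list depended on the setting. It ranged from 3 genes with limma's test, which called 9.68% of all transcripts, to 11 with a limit of 100 on the mean. That limit called 6440 of the 18808 transcripts it kept. The subunit Rela was at 2500 in WT and 2905 in KD (0.22, SE 0.09, q = 0.0646). The inhibitor Nfkbia, a target gene of NF-kB, was at 1134 in WT and 871 in KD (−0.38, SE 0.12, q = 0.0608).

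JAK-STAT genes had a called transcript for 6 of 26 genes (23.1%), 4 higher and 2 lower, beside 17.4% of all genes. By transcript, 10.7% of 56 were called, beside 12.5% of all transcripts. With limma's test 4 genes of the list had a called transcript, 2 of them among these 6. Pias4, an inhibitor of STAT proteins, rose from 1553 in WT to 2718 in KD (log2(fold change) 0.81, SE 0.09, q = 0.0109), and Stat2, a mediator of interferon signals, fell from 2896 to 2161 (−0.42, SE 0.11, q = 0.0333). The main transcript of Stat3, through which Il6 and Lif act, fell from 7021 to 5893 (−0.25, SE 0.08, q = 0.0437). Socs3, a feedback inhibitor that Il6 and Lif induce, was at 1988 in WT and 2577 in KD and did not pass (0.37, SE 0.13, q = 0.0770).

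Regulators of cytokine mRNA decay had a called transcript for 9 of 20 genes (45%), beside 17.4% of all genes. By transcript this was 12 of 55 (21.8%), close to the 21.4% among all transcripts whose mean reached 100, and the lowest summed mean level of a gene in the list was 656. Of these 9, 3 had a transcript that was higher and 7 one that was lower, with 1 gene in both counts. Both tested transcripts of Zfp36, the decay factor tristetraprolin, fell, from 2841 in WT to 1293 in KD (log2(fold change) −1.14, SE 0.10, q = 0.0103) and from 1681 to 1007 (−0.74, SE 0.11, q = 0.0164). Its relatives were lower by estimate and did not pass, with Zfp36l2 at −0.39 (SE 0.14, q = 0.0796) and the main transcript of Zfp36l1 at −0.25 (SE 0.14, q = 0.197). Hnrnpd, which encodes the AU-rich element binding protein AUF1, gave the greatest called rise of the list, from 4057 to 6883 (0.76, SE 0.15, q = 0.0266). Another of its transcripts fell from 1032 to 63.1 (−4.02, SE 0.83, q = 0.0195). The lowest estimate in the list was a minor transcript of Tial1, listed at 51.8 in WT and at 0 in KD (q = 0.0164), for which no fold change is given. Dcp2, a decapping enzyme, fell from 2529 to 1556 (−0.70, SE 0.09, q = 0.0115). Zc3h12a, the nuclease regnase-1 that cleaves Il6 mRNA, was at 811 in WT and 838 in KD (0.05, SE 0.12, q = 0.181). With limma's test 5 genes of this list had a called transcript.

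**Figure D4:**
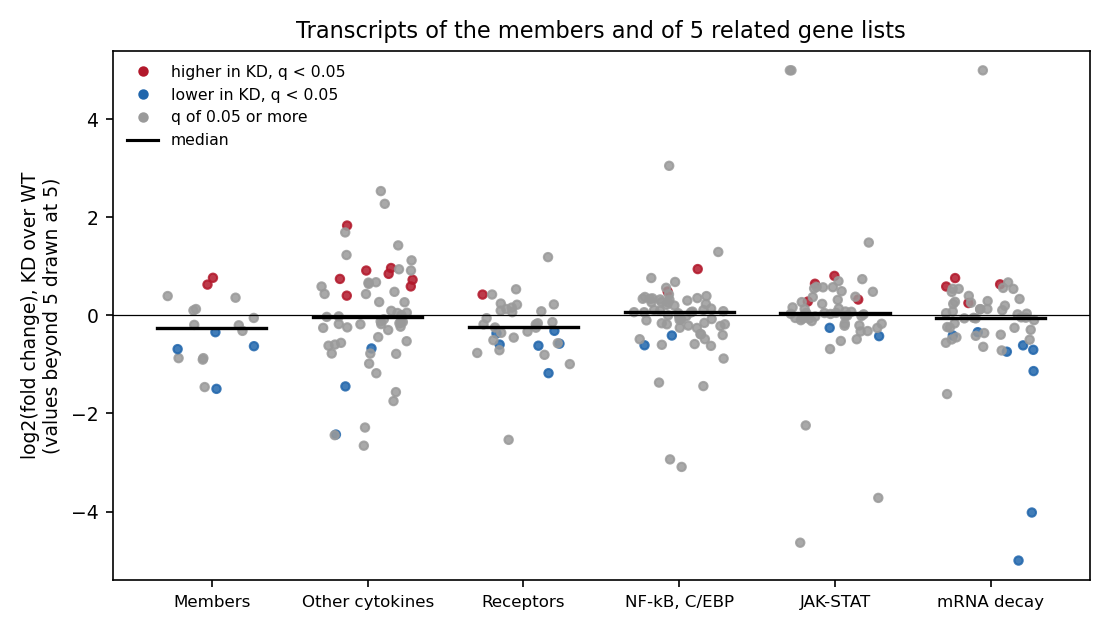
Log2(fold change) of KD over WT for each tested transcript of the 9 genes described here (Members) and of the 5 related lists, with red and blue points for transcripts called higher and lower, grey for the rest and a black line for the median; values beyond 5 are drawn at 5. The medians of the members (−0.26) and the receptors lie below 0, and the mRNA decay genes hold the lowest called values, those of Tial1 and Hnrnpd.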

How the data were processed

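RNA-seq of 2 KD and 2 WT libraries of NIH/3T3 cells was used, grouped by the condition in the labels. The authors trimmed reads with BBDuk, estimated counts with Kallisto and compared the groups with Sleuth; the submitters' notes also name bcl2fastq (2.17), HISAT2 and GRCm38, and the transcriptome index is not given in the sources used here. The deposited effects, standard errors and means are on the natural log scale of normalised estimated counts plus 0.5, and other deposited columns hold variances and the likelihood ratio score. Also deposited were p-values with q-values over all 34200 transcripts from 2 tests, likelihood ratio and Wald, and gene values in which transcript p-values are combined. These columns are the authors' comparison of KD with WT, and they were used because values of single libraries were not; 0 columns of single-sample values were left unused. The design assumed single-library counts as a possible addition, so no count test was run.

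Division by the natural log of 2 gave log2 values. Group levels were computed as the exponential of the mean plus or minus 0.5 times the effect, minus 0.5. The 95% confidence intervals rest on the standard errors, and depth per library is unknown. Alternatives were the Wald q-value, limma (3.58.1) with a trend, from the deposited variances, limits of 10 and 100 on the mean, centring on 50 classes of level or of GC content, and, added after seeing the data, the gene q-value. Centred effects were tested with the Wald test from the deposited standard errors, and not with the likelihood ratio test. The limma step was tested on simulated data. Positions came from GENCODE M21 (GRCm38), which matched 33720 of the tested transcripts (98.6%). Uniqueness is the percentage of 31-base words found in no other of these matched transcripts, so untested transcripts were not compared. The members, the lists and the tests were chosen with earlier results of these data known. Named genes were every member, the called genes with the greatest rise and fall of each list, all called genes where 5 or fewer were called, Setd2, and others marked as chosen later.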

Additional observations from a re-analysis of the deposited data

How the results depend on the processing

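Setd2 stayed lower in KD and called in every setting run. Of the 6 called transcripts, each kept its direction and its call under the Wald test, the limits on the mean and both centrings. The centred values were tested by the Wald test only, so the main rule was not applied to them. Under limma's moderated test 5 of the 6 kept both, and Ccl7-201 had an adjusted p of 0.0612. Over the settings 5 to 7 of the tested transcripts were called, and the added one was Lif-202, with q = 0.0159 by the Wald test and adjusted p-values of 0.0318 and 0.0467 with limits of 100 and 10 on the mean. Centring on GC content turned Cxcl1-201 to 0.056 and Cxcl5-201 to 0.20, neither of them called; the class medians removed at these transcripts ran from −0.40 to 0.21 for GC content and from −0.24 to 0.20 for level. By the gene q-value 6 genes passed where 5 had a called transcript. For the lists, the Wald test gave 15 cytokine genes in place of 9, 8 NF-kB genes in place of 4 and 10 JAK-STAT genes in place of 6. The limit of 100 gave 11 NF-kB genes and 11 JAK-STAT genes, the limit of 10 gave 7 NF-kB genes, and centring gave 8 by level and 7 by GC content. Counts over all transcripts moved too. The main rule called 4266 of 34200, the Wald test 6233 and limma's test 3312. With the limit of 100 this was 6440 of 18808, and with the limit of 10 it was 4878 of 28986. Centring called 5862 of 34200 by level and 5187 of 33720 by GC content. limma's test gave 3 receptor genes in place of 6 and 5 mRNA decay genes in place of 9. The cause of these differences was not tested. Leaving out each replicate and the replicate block were not run. No paired analysis was possible because the values used here are fits over all libraries. For the same reason depth and the effect of any one library on a call are unknown. Transcripts under about 100 counts, such as Ccl5-201 and the minor Il6 forms, have intervals too wide to show changes of the size seen for Ccl7.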

Other observations

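Other chemokine genes lie on the chromosomes of Ccl2 and Cxcl1. On chromosome 11, 7 Ccl genes were tested with 1 transcript each, and 3 were called; the Wald test also gave 3 and limma's test 2, where 12.5% of all transcripts were called by the main rule. Beside Ccl2 and Ccl7 this was Ccl9, a macrophage chemokine that lies 42400 bases from Ccl5 at chr11:83572919-83578636. Ccl9 fell from 566 in WT to 207 in KD, a log2(fold change) of −1.45 (SE 0.17, q = 0.0118), the greatest called fall of these chemokines. Ccl8, downstream of Ccl7 and Ccl11, was at 41.5 in WT and 58.1 in KD (0.48, SE 0.37, q = 0.325). Ccl11 and Ccl6 were under 10 in both groups.

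On chromosome 5, 7 chemokine genes with 8 transcripts were tested. No transcript was called by Sleuth's likelihood ratio test, 1 had an unadjusted p under 0.05, 1 was called by the Wald test and 0 by limma's test. Cxcl10, which interferons induce and which attracts T cells, was nearest to the threshold. Its main transcript was at 102 in WT and 51.5 in KD (log2(fold change) −0.98, SE 0.29, q = 0.0566). Ppbp was at 78.6 in WT and 77.5 in KD (−0.02, SE 0.28), and Pf4 was at 6.05 in WT and 6.31 in KD. The genes of these paragraphs were chosen by position after values were seen.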
